A study of Arabidopsis thaliana with 8 samples.

Results

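Of the 33433 genes counted in the 24-nt small RNA (sRNA) tables of Arabidopsis thaliana endosperm, 136 genes had at least 20 raw reads on average in mat nrpd1+/- and a mean level in pat nrpd1+/- of at most 0.333 times that in mat nrpd1+/-. Levels are CPM, the reads of a gene per 1000000 reads of the same library in the rows of mature miRNAs. The 136 genes, called the members here, were thus chosen on the 24-nt difference between mat nrpd1+/- and pat nrpd1+/-, so this difference is described and not tested. Of the 3704 genes that met the read minimum, the members made up 136, and 279 genes met the opposite rule with pat at the read minimum and mat at most 0.333 times pat. No gene was in both sets.

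The sRNAs came from endosperm, the tissue that feeds the embryo, taken 7 days after pollination, without any treatment, when Ler mothers had been crossed with Col-0 fathers. In mat nrpd1+/- (3 libraries) a Ler nrpd1-/- mother was crossed with a wild-type Col-0 father. In pat nrpd1+/- (2 libraries, replicates 2 and 3) a wild-type Ler mother was crossed with a Col-0 nrpd1-/- father, and in nrpd1-/- (3 libraries) both parents were mutant. The mutation nrpd1a-4 is a T-DNA insertion of Col-0 origin that was brought into Ler by repeated crossing, and the study states that segments of Col-0 sequence remain in its Ler nrpd1-/- plants, so that mat nrpd1+/- and nrpd1-/- share a mother type that pat nrpd1+/- does not have. Each library was a pool of hand-dissected endosperm from many seeds, and replicates used different parent plants. A further pat nrpd1+/- library was discarded by the authors for its low number of reads. Libraries of wild-type (WT) endosperm were not analysed here, and WT levels below are means worked out from the authors' normalized tables, with no replicate error.

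NRPD1 is the largest subunit of RNA polymerase IV, a plant polymerase that makes short transcripts at transposons and other silenced sequences. RDR2 copies these transcripts into double-stranded RNA and DCL3 cuts them into 24-nt sRNAs, which guide DNA methylation through ARGONAUTE proteins and the methyltransferase DRM2. Endosperm inherits more copies of the genome from the mother than from the father.

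The libraries held 16855 to 17785 miRNA reads of 24 nt in the mat group. The pat libraries held 38607 and 13118, and those of nrpd1-/- 19645 to 31761. One read was therefore worth 56.2 to 59.3 CPM in mat nrpd1+/-, 25.9 and 76.2 CPM in the pat libraries and 31.5 to 50.9 CPM in nrpd1-/-, and the shallower pat library, replicate 3, carried as much weight in the pat mean as the deeper one. Without pat replicate 3 the rule took 271 genes, 130 of them among the 136. Leaving out any one of the other 4 libraries that the rule used gave 120 to 168 genes, and 78 members were kept whichever of the 5 was left out. With reads in genes in place of miRNA reads as the denominator, 383 genes met the rule, among them all 136.

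The gene given to mark the set was the long noncoding RNA (lncRNA) gene AT1G06927 (chr1:13250536-13250970, plus strand). It had 1353, 1146 and 926 reads of 24 nt in the mat libraries, 53 and 46 in the pat libraries and 5, 0 and 1 in nrpd1-/-. The groups did not overlap in CPM, with 65447 ± 11049 CPM in mat (SD, n = 3) and 2440 ± 1509 CPM in pat (SD, n = 2), a ratio of 0.0373. Its level in mat was 1.02 times the WT mean and in pat 0.0382 times, so that only the cross with a mutant father departed from WT by 2-fold or more. The first 300 bases of the gene are shown because reads at this gene can be placed. No base of it lies in a 24-mer found more than once in the TAIR10.1 genome, where capitals would mark such bases (chr1:13250536-13250835, plus strand, RefSeq):
AT1G06927: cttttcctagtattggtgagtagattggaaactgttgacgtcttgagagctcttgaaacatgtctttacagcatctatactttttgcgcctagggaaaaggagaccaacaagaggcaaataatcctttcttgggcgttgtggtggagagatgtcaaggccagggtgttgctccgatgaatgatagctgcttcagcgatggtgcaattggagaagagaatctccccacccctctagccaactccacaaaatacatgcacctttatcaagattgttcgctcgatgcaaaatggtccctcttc

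The 15 members with the highest mean level in mat nrpd1+/- spanned 17718 to 126302 CPM there. AT4G02910, a gene of unknown function on chromosome 4, led them with 2366, 2258 and 1978 reads in mat, 758 and 379 in pat and 9, 13 and 7 in nrpd1-/-. Its mean was 126302 ± 8638 CPM in mat (SD, n = 3) and 24263 ± 6546 CPM in pat (SD, n = 2), a ratio of 0.192, and it stood at 1.5 times WT in mat and 0.292 times in pat. All 15 had every pat library below every mat library, values that the rule used (32.5% of the 3704 genes). All 15 also had every nrpd1-/- library below every pat library, as did 93.6% of the 3704 genes.

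**Figure D1:**
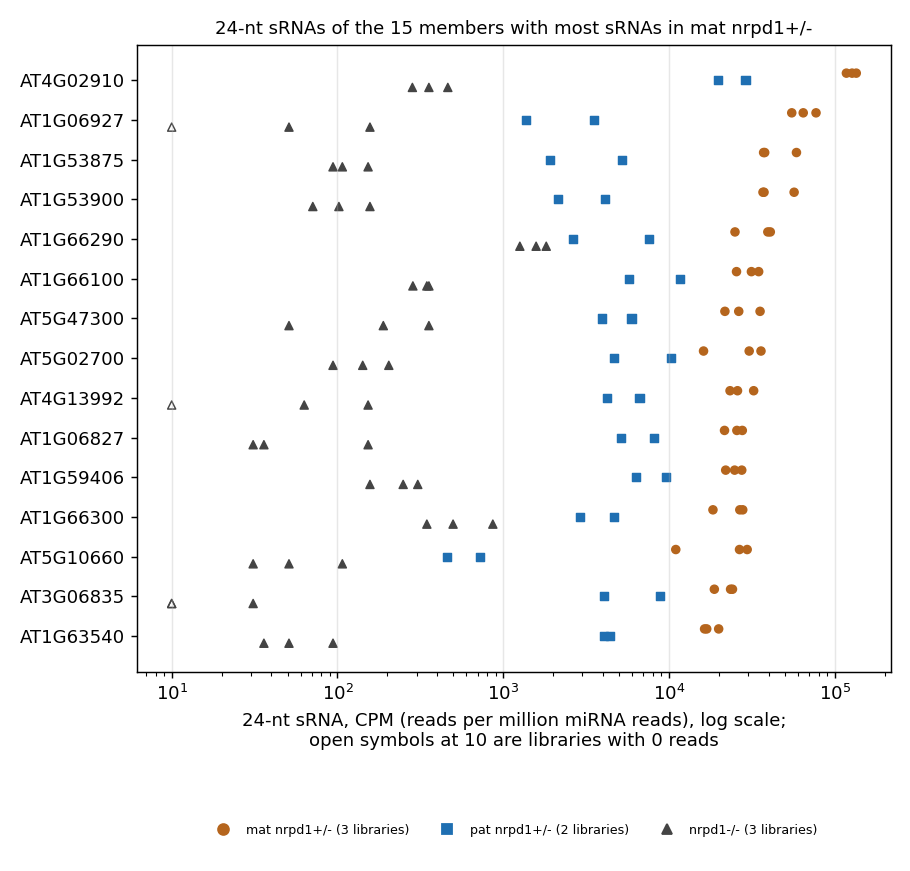
Level of 24-nt sRNAs (CPM, log axis) of the 15 members with the highest mat mean, 1 point per library: 3 of mat nrpd1+/-, 2 of pat nrpd1+/- and 3 of nrpd1-/-. The 3 groups are apart in every row, and AT1G06927 and AT5G10660 have the lowest pat means, at ratios to mat of 0.0373 and 0.0264.

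Of the 15, 4 were F-box genes, whose products pick proteins for ubiquitination. AT1G66290 had 717, 701 and 421 reads in mat, 102 and 99 in pat and 40, 51 and 31 in nrpd1-/-, the most in nrpd1-/- of all members. Its neighbour AT1G66300 had 489, 475 and 310 reads in mat, 112 and 61 in pat and 11, 14 and 17 in nrpd1-/-. On chromosome 5, AT5G47300 had 622, 468 and 366 reads in mat, 229 and 52 in pat and 6, 10 and 1 in nrpd1-/-, and AT5G02700 had 630, 541 and 272, then 179 and 135, then 3, 4 and 4. Genes annotated as F-box, FBD or RNI-like made up 10 of 136 members (7.35%) and 121 of the 3704 genes (3.27%), a family picked after the members were seen and so given with no test.

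AT5G10660, annotated as related to calmodulin-binding proteins, had 520, 473 and 185 reads in mat, 28 and 6 in pat and 1, 3 and 1 in nrpd1-/-. It differed from WT in both crosses, at 2.52 times WT in mat and 0.0704 times in pat. The lncRNA genes AT1G06827 and AT3G06835 kept more in pat. AT1G06827 had 486, 456 and 364 reads in mat against 198 and 107, and AT3G06835 had 413, 429 and 316 against 157 and 116. Their ratios of pat to mat were 0.266 and 0.292.

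The remaining 6 of the 15 were AT1G66100, a thionin (a small antimicrobial peptide), the lipase-like AT1G59406, AT1G63540, annotated as hydroxyproline-rich, AT4G13992, annotated with a C1 domain, and the pair AT1G53875 and AT1G53900. Ratios of the first 4 ran from 0.200 in AT4G13992 to 0.320 in AT1G59406. The pair stood out by its sequence. AT1G53875, annotated as LURP-one-related, and AT1G53900, annotated as an eIF-2B family gene, lie on the same strand of chromosome 1 and share a run of 866 identical bases, out of 926 bases in the first and 3506 in the second. Only 1 alignment was kept for each read, so reads of this run cannot be told apart between the genes. AT1G53875 had 1031, 661 and 636 reads in mat, 74 and 68 in pat and 3, 3 and 3 in nrpd1-/-, and AT1G53900 had 998, 665 and 621, then 83 and 54, then 5, 2 and 2. The values were nearly equal, and those of the run are not separate measurements. Only 24.2% of the 24-mers of AT1G53900 are shared with AT1G53875, yet none of its 24-mers occurs once in the genome. Reads of its other part may thus not be its own either. AT1G59406 also has no 24-mer that occurs once in the genome. The start of the shared run is printed as it stands in both (AT1G53875 chr1:20114980-20115099 and AT1G53900 chr1:20127545-20127664, plus strand, RefSeq TAIR10.1):
AT1G53875 and AT1G53900: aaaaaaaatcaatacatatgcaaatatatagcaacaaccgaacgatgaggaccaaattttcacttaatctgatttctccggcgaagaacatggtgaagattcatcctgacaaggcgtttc

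The lowest ratios of all members were 0.00879 in AT1G17545 and 0.00918 in AT3G08005. AT1G17545, annotated as a protein phosphatase 2C gene, had 17, 6 and 127 reads in mat and 2 and 0 in pat, so its mat mean of 2946 ± 3986 CPM (SD, n = 3) rested on replicate 3. Without that library the mean was 652 CPM, from 11.5 reads on average, and the gene fell under the read minimum. The lncRNA gene AT3G08005 had 25, 31 and 18 reads in mat, 1 and 0 in pat and 0 in every nrpd1-/- library, a low level that was even across the mat libraries. AT2G08105, also a lncRNA gene, had 162, 119 and 119 reads in mat, 17 and 3 in pat and 0, 0 and 1 in nrpd1-/-. Pat stood at 10% of mat or less in 16 of the members. Unlike AT1G06927, AT3G08005 holds some repeated sequence, although 64.5% of its 24-mers occur once in the genome. In its first 300 bases, 224 are touched by a 24-mer found more than once in the genome, and these are in capitals (chr3:18087440-18087739, minus strand, RefSeq TAIR10.1):
AT3G08005: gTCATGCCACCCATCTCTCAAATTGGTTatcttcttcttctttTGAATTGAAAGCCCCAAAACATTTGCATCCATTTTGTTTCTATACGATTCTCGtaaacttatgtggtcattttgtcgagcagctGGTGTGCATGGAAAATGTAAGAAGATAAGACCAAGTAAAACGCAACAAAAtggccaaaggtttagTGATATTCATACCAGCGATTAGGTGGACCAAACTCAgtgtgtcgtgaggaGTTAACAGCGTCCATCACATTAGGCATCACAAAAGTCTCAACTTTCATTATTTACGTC

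The ratio of pat to mat over the members ran up to 0.330 with a median of 0.228, against a median of 0.794 over all 3704 genes. Just inside the ratio limit lay NRPD1 itself (AT1G63020; 288, 258 and 242 reads in mat, 170 and 73 in pat, ratio 0.3305) and AT3G52700 (160, 150 and 104 against 75 and 43, ratio 0.3303). Just outside lay AT5G55650 (37, 66 and 46 against 44 and 10, ratio 0.3339) and AT1G54550 (29, 24 and 21 against 19 and 6, ratio 0.3355). At the read minimum, AT1G65346 and AT3G50570 were just inside with means of 20.3 reads in mat, and AT2G45840 and AT5G03510 just outside with 19.3. The median mat level of the members, 3829 CPM, was close to that of the 3704 genes, 3837 CPM.

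Every pat library was below every mat library in 135 of 136 members, where the rule itself used these values (32.5% of the 3704 genes). The exception was AT3G22510, annotated as TSR2-like, with 6, 46 and 28 reads in mat and 8 and 5 in pat. Within mat, replicate 3 was the lowest in 103 members (75.7%) and in 66.1% of the other genes, and the SD of mat exceeded 0.5 times its mean in 10 members.

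The WT means split the members into genes that were low with a mutant father and genes that were high with a mutant mother. In 72 members mat was at least 2 times WT while pat was above 0.5 times WT, in 47 pat was at most 0.5 times WT while mat was under 2 times, in 14 both held, and in AT3G52700, AT4G06800 and AT4G08550 neither held. In total 86 members stood at least 2-fold above WT in mat, and 61 at most 0.5 times WT in pat. Over the 3704 genes these shares were 8.75% and 4.21%. Because the rule required pat to be far below mat, most members had to depart from WT in at least 1 of the crosses. The excess over these shares thus follows largely from the rule. The rule also bore on the split, because its read minimum was set on mat only. Genes with few reads in WT could enter only where mat was high, which favours the first pattern. The split is thus a description of the members. As pat was above 0.5 times WT in the 72 genes, the set as a whole cannot be named for a need of paternal NRPD1. For the 72 genes the level in pat was near WT, with a median of 0.883 times, and the level in mat was the one that stood apart, with a median of 3.64 times. For the 47 genes the medians were 0.321 times WT in pat and 1.5 times in mat. Over all 3704 genes mat was at a median of 1.25 times and pat at 1.01 times WT on the same scale, the authors' size factors rather than miRNA reads.

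**Figure D2:**
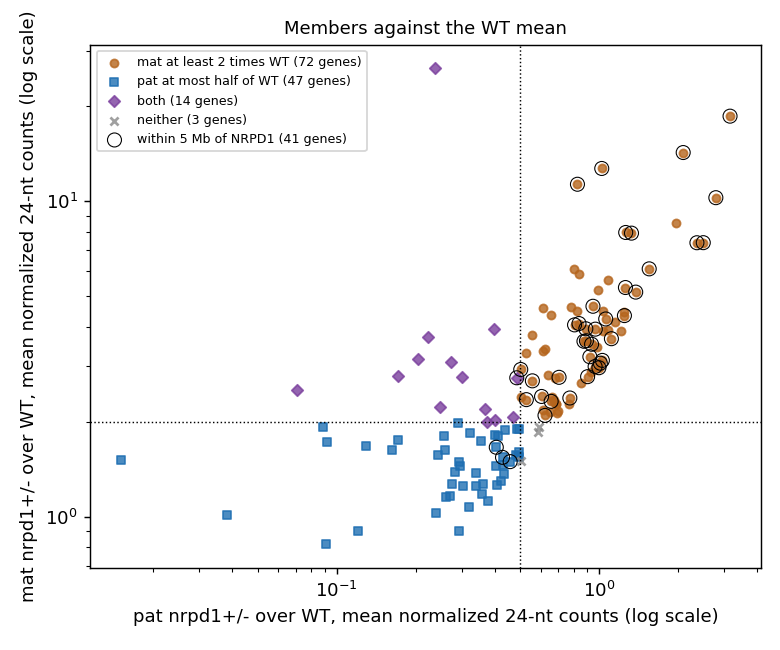
Mean normalized 24-nt count of each member over the WT mean, pat nrpd1+/- on the horizontal and mat nrpd1+/- on the vertical axis (both log), with dotted lines at 0.5 and 2 and rings around the 41 members within 5 Mb of NRPD1. The 72 genes that are high in mat lie to the upper right, the 47 that are low in pat to the lower left, and 37 of the 41 ringed genes are among the former.

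The 47 genes low in pat included AT4G02910, AT1G06927, AT3G08005, AT2G08105, AT4G13992, AT1G06827 and AT3G06835. AT2G21100, a dirigent-like gene of the family that steers lignan synthesis, had 154, 144 and 136 reads in mat and 29 and 11 in pat, and AT5G24240, a phosphatidylinositol 4-kinase gamma gene, had 268, 233 and 160 against 45 and 9. AT2G21100 was at 0.172 times WT in pat and AT5G24240 at 0.129 times, both under 2 times WT in mat. Other genes with this pattern included the cation exchanger gene CHX23, the cyclic nucleotide-gated channel gene CNGC13, COQ3 of ubiquinone synthesis, AL6, which encodes a PHD finger protein, and the microtubule-associated protein gene ATMAP65-6. These 5 were at 0.239 to 0.438 times WT in pat, AL6 on only 26, 25 and 22 reads in mat and 10 and 5 in pat. At other lengths, with few reads, mean CPM was higher in pat than in mat for AL6 at 23 nt, COQ3 at 21 nt and ATMAP65-6 at 22 nt. CHX23 and CNGC13 were lower in pat at these lengths. Noncoding RNA genes made up 14 of these 47 (29.8%) and 7 of the 72 high in mat (9.72%).

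The 14 genes with both patterns included CYP71A20, a cytochrome P450 gene (103, 94 and 101 reads in mat, 23 and 8 in pat, 0 in nrpd1-/-), which was at 2.78 times WT in mat and 0.300 times in pat. The dirigent-like gene AT5G42500 (54, 55 and 32 against 7 and 2) and ARGAH1, an arginase gene (28, 19 and 19 against 15 and 2), were also in this class. AT1G17545 had the highest ratio of mat to WT of all members, 26.4, which rested on mat replicate 3.

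The members were unevenly placed in the genome. Within 5 Mb of NRPD1 on chromosome 1 lay 41 members of 274 genes that met the read minimum (14.96%), against 3.75% over all chromosomes, so that 30.1% of members and 7.56% of the genes were there. Of the 41 members, 37 were high in mat only, the beta-expansin gene EXPB6 had both patterns, and the transcription factor gene TCP1, the tRNA-Tyr gene AT1G56830 and the FBD-like AT1G56610 were low in pat only. Their median was 3.61 times WT in mat and 0.936 times in pat. The other genes of the region that met the read minimum had a median of 1.35 times WT in mat, near the 1.24 times of such genes over all chromosomes. A Col-0 segment linked to the nrpd1 mutation in the Ler mother, and the loss of maternal NRPD1, cannot be told apart for these genes.

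**Figure D3:**
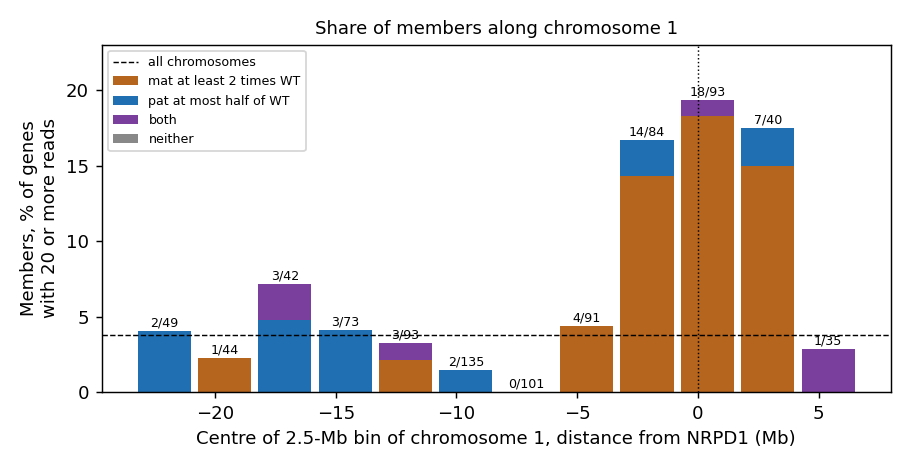
Members as a share of the genes with 20 or more reads (%) in 2.5-Mb bins of chromosome 1, placed by the distance of the bin's centre from NRPD1 (Mb) and split by pattern against WT; numbers over the bars are members over genes, the dashed line is the share over all chromosomes, and the last bin, with 4 genes, is not drawn. The 3 bins around NRPD1 hold 14 of 84, 18 of 93 and 7 of 40 genes, mostly genes high in mat.

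NRPD1 was itself one of the 41, at 7.4 times WT in mat and 2.49 times in pat, with 10, 13 and 10 reads in nrpd1-/-. The highest of the 41 against WT was the F-box gene AT1G53815 with 131, 136 and 88 reads in mat, 26 and 21 in pat and 3, 2 and 5 in nrpd1-/-, at 18.6 times WT in mat and 3.16 times in pat. AT1G66290 followed at 14.3 times WT in mat, AT1G53875 at 12.7, AT1G53900 at 11.3 and AT1G66130, annotated as an NAD(P)-binding protein, at 10.3. In all 5 genes the level in pat was nearer to WT than the level in mat.

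The other members of the region had many kinds of products. Disease resistance genes of the NBS-LRR type were AT1G58390 and AT1G63870, and 3 such genes in all were members. AT1G58390 had 354, 301 and 251 reads in mat, 149 and 85 in pat and 9, 5 and 2 in nrpd1-/-, at 3.67 times WT in mat and 1.11 times in pat. Regulators of transcription were AGL12, a MADS-box gene, ZFP4, a zinc finger gene, AT1G62975, a bHLH gene, and the TFIIIC-like genes AT1G58766, AT1G59077 and AT1G59453. These TFIIIC-like genes share 2357 24-mers, at least 95.0% of those in each, so that their mean levels in mat of 8966, 9104 and 9349 CPM are not separate measurements.

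Enzyme genes of the region were HISN6B of histidine synthesis, the methyltransferase genes TSM1, CCOAMT and AT1G66720, AT1G57650, annotated as ATP-binding, DAA1, an AAA-type ATPase gene, and AT1G68470, annotated as exostosin-like. The ubiquitin gene UBQ13, the F-box gene AT1G70960, AT1G66650, annotated as RING/TRAF-like, the receptor-kinase-related AT1G63550, AT1G62320, annotated as ERD-like, and the genes AT1G53265, AT1G66245, AT1G52155, AT1G57613 and AT1G65346, with no known function, were also members, as were the tRNA-Tyr gene AT1G56890 and the pseudogene AT1G56390. AT1G65346 lies within UBQ13 on the same strand, with 858 bases in common, so their reads there cannot be told apart. AT1G56830 and AT1G56890 share all of their 24-mers.

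HISN6B had 278, 233 and 176 reads in mat, 91 and 59 in pat and 3, 4 and 4 in nrpd1-/-. HPA1 on chromosome 5, which encodes the same enzyme, histidinol-phosphate aminotransferase, had 241, 189 and 163 reads in mat, 95 and 62 in pat and 1, 3 and 3 in nrpd1-/-. The genes are near-identical copies that share 2004 24-mers, 91.3% of those of HISN6B and 64.7% of those of HPA1, so a read of the shared part can have come from either. A stretch of 120 bases of each shows how alike they are, with the 2 bases that differ in capitals (HISN6B chr1:27067008-27067127, plus strand, and HPA1 chr5:3249899-3250018, minus strand, RefSeq TAIR10.1):
HISN6B: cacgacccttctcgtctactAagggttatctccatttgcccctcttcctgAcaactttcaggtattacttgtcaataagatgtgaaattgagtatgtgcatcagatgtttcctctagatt
HPA1: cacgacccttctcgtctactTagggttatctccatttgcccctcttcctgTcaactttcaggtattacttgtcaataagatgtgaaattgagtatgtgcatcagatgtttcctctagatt

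Outside chromosome 1, members were also dense at the end of chromosome 2 and the start of chromosome 5, regions picked after the counts per bin were seen. From 15 Mb to the end of chromosome 2 they were 10 of 94 genes (10.6%), all 10 high in mat only, among them UGT73C1, a glycosyltransferase gene with 295, 230 and 200 reads in mat, 117 and 59 in pat and 9, 22 and 5 in nrpd1-/-, and HRD, an AP2/ERF transcription factor gene. Of the 10, AT2G09555, AT2G09610, AT2G45245 and AT2G45380 share sequence with one another, as described below, and may share reads. From 0 to 5 Mb of chromosome 5 members were 11 of 89 genes (12.4%), 8 of them high in mat only. AT5G01055, AT5G06265 and HPA1 are among the 11 and also share sequence with other members, so neither count is one of independent genes. All 11 had their lowest mat level in replicate 3, at a median of 0.521 times that of replicate 1, against 0.753 in the other genes there. All 10 members at the end of chromosome 2 were lowest in it too, at a median of 0.707 times. So were 33 of the 41 members near NRPD1 and 66.1% of the genes that were not members. AT5G10660, AT5G02700 and AT5G06043, with 440, 298 and 129 reads in mat, belong to the 11 on chromosome 5. Elsewhere in the genome 74 of 3165 genes were members (2.34%), and 42 of these 74 were low in pat only.

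A group of members on 4 chromosomes shared stretches of sequence with one another. The lncRNA gene AT2G09610 (364 bases, chr2:18702738-18703101, plus strand) has no 24-mer that occurs once in the genome. Of the 33147 genes searched, 13 others held at least 3 of its 24-mers. Of these 13, 8 met the read minimum and all 8 were members, a count that was looked for after the members were known and so is given with no test. They were AT2G09555, AT2G45245 and AT2G45380 on chromosome 2, AT3G01115 and AT3G01575 on chromosome 3, AT4G34071 on chromosome 4 and AT5G01055 and AT5G06265 on chromosome 5. The 5 that did not meet it had 1.0 to 5.0 reads on average in mat. Since 1 alignment was kept per read, the 9 genes may share reads and are not independent. The start of AT2G09610 is printed with the bases in capitals that lie in a 24-mer also found in a member on another chromosome, 209 of 300 (chr2:18702738-18703037, plus strand, RefSeq TAIR10.1):
AT2G09610: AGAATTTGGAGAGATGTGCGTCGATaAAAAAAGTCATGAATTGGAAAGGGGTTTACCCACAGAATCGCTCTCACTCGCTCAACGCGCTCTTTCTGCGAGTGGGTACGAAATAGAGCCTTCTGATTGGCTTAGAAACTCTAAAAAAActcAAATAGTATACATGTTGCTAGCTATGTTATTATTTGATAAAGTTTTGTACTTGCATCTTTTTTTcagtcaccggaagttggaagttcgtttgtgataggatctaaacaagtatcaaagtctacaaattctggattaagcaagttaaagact

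AT2G09610 had 218, 184 and 170 reads in mat, 71 and 27 in pat and 0, 1 and 0 in nrpd1-/-. AT4G34071, which shares 56 of its 24-mers, had 335, 286 and 233 reads in mat, 125 and 67 in pat and 5, 3 and 5 in nrpd1-/-. AT3G01575, which shares 30, had 57, 72 and 47 reads in mat, 11 and 5 in pat and 0 in nrpd1-/-. Each of the 9 genes had all pat libraries below all mat libraries, values that the rule used (32.5% of the 3704 genes). Their ratios ran from 0.0991 in AT3G01575 to 0.273 in AT2G45245. AT2G09610 lies for 356 bases within AT2G45380 on the other strand.

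**Figure D4:**
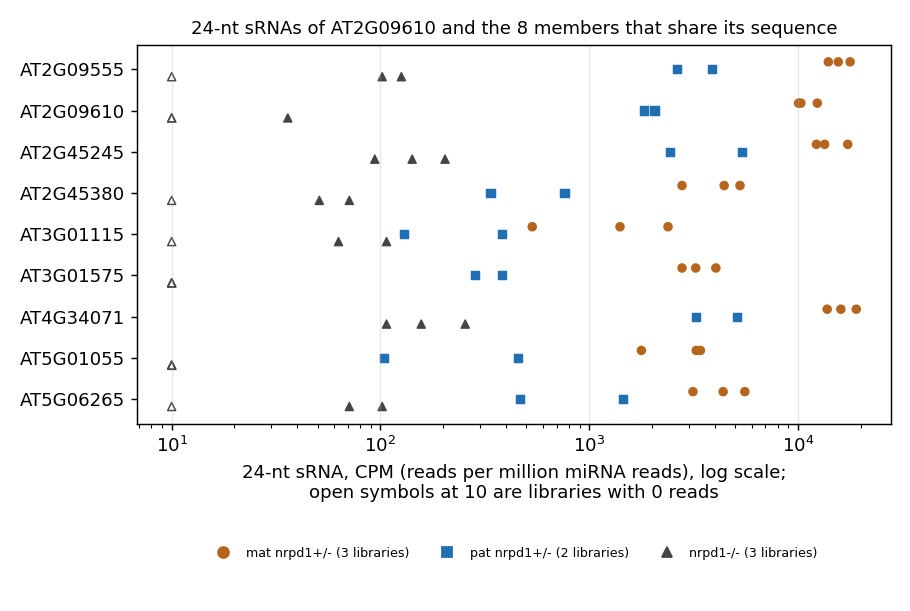
Level of 24-nt sRNAs (CPM, log axis) of AT2G09610 and the 8 members that hold at least 3 of its 24-mers, 1 point per library, open symbols at 10 standing for 0 reads. In all 9 genes the 2 pat nrpd1+/- points lie below the 3 mat nrpd1+/- points, and the nrpd1-/- points lie below both.

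Other members that shared sequence were AT1G48285 and AT2G37125, with 409 24-mers in common, and AT1G66290 and AT1G66300, with 49. AT1G06407 and AT1G31095 overlap by 27 bases and AT3G01575 and AT3G01585 by 59. In most properties the members were like the 3622 genes at the read minimum that have a position in the reference. Protein-coding genes were 77.2% of members and 75.6% of these genes, and the median length was 1568 and 1458 bases. A transposon insertion overlapped 8.09% and 12.7%, and less than 0.5 of the 24-mers were unique in 15.4% and 14.9%. lncRNA genes were 17.6% of members and 9.53% of the genes, and transcribed pseudogenes 2.21% and 10.4%.

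The sRNAs of other lengths from the same genes were also lower in pat than in mat nrpd1+/-. Summed over the 136 members, the level was 1186080 ± 199915 CPM in mat (SD, n = 3) and 237359 ± 59222 CPM in pat (SD, n = 2) at 24 nt. At 23 nt it was 516295 ± 146652 and 75253 ± 36421 CPM, at 22 nt 116774 ± 31009 and 22504 ± 10543 CPM, and at 21 nt 119310 ± 19786 and 35972 ± 18124 CPM. The groups did not overlap in any size class. The members held 1.91% to 2.24% of all 24-nt reads in genes in the mat libraries and 0.233% and 0.332% in the pat libraries.

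**Figure D5:**
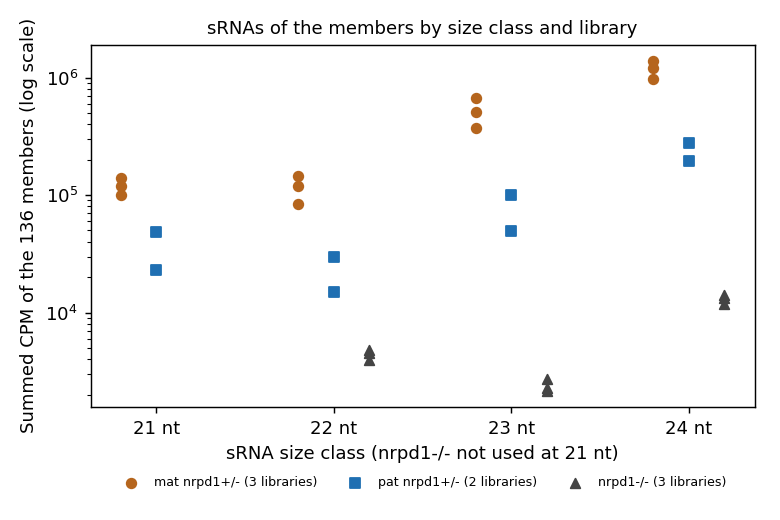
Summed level of the 136 members (CPM, log axis) in each library by sRNA length. The pat nrpd1+/- points are below the mat nrpd1+/- points at 21, 22, 23 and 24 nt, and the nrpd1-/- points, not used at 21 nt, are lower again, with means of 4443 CPM at 22 nt, 2396 CPM at 23 nt and 13047 CPM at 24 nt.

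The size classes come from the same libraries and genes as the rule, so their difference between mat and pat is given with no test. All pat libraries were below all mat libraries in 122 members at 23 nt (41.9% of the 3704 genes), in 80 members at 22 nt (23.5% of genes) and in 77 at 21 nt (14.4% of genes). The median ratio of pat to mat was 0.155 at 23 nt, 0.214 at 22 nt and 0.361 at 21 nt, against 0.563, 0.691 and 0.887 over all genes at the read minimum. AT1G06927 had 303, 231 and 223 reads of 21 nt in mat and 10 and 12 in pat and so was far lower in pat in both of these size classes. In AT1G66290 the 21-nt reads, 76, 57 and 44 in mat and 59 and 42 in pat, overlapped between the groups, although its 24-nt reads did not.

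Taken as sums over genes, the members had few 21-nt sRNAs for their 24-nt sRNAs. Genes with many reads weigh most in such sums, and no value per gene was worked out, so the difference may not hold gene by gene. In mat nrpd1+/- there were 10.1 ± 0.0534 reads of 21 nt per 100 reads of 24 nt in members and 47.5 ± 4.87 over all genes at the read minimum (SD, n = 3). The corresponding values in pat were 14.7 ± 3.98 and 55.1 ± 12.3 (SD, n = 2). At 22 nt the values in mat were 9.73 ± 1.02 in members and 21.5 ± 1.87 over all genes at the read minimum. Members and all these genes, which include the members, were closer at 23 nt, with 43.0 ± 5.12 and 39.4 ± 4.05 reads per 100 in mat.

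Without NRPD1 from either parent, nearly all 24-nt sRNAs of the members were lost. Every nrpd1-/- library was below every mat library in all 136 members (92.7% of genes) and below every pat library in 128 (93.6% of genes), shares that were close to those of all genes. The median level in nrpd1-/- was 1.06% of that in mat for the members and 1.46% for the 3704 genes. Against pat it was 4.82% and 1.84%, the pat level being low in members by the rule.

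In 15 members no read of 24 nt was found in any nrpd1-/- library. With 3 reads over the group, worth 37.7 CPM, as the limit that a count of 0 allows, they were at least 32.5-fold (AT1G31990) to at least 241-fold (AT2G37125) lower than in mat. AT2G21100 was at least 220-fold lower and AT3G08005 at least 37.4-fold lower. In contrast, 7 members (5.15%) kept more than 5% of their mat level. The share over all genes was not worked out for either count. The upper quartile of the level in nrpd1-/- was 2.05% of mat in members and 4.31% over the 3704 genes, so such levels were no rarer in genes at large.

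RPP1 (AT3G44480), an NBS-LRR gene for resistance to downy mildew, kept the most. It had 37, 37 and 25 reads of 24 nt in mat, 22 and 8 in pat and 32, 21 and 22 in nrpd1-/-, so that nrpd1-/- was at 50.7% of mat and above both pat libraries, the only member of which this held (1.19% of genes). ATMAP65-6 had 47, 41 and 41 reads in mat, 25 and 6 in pat and 15, 16 and 6 in nrpd1-/-, which was 18.2% of mat. Only 36.1% of the 24-mers of RPP1 occur once in the genome, so its reads may be shared with related genes.

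The 22- and 23-nt reads of nrpd1-/- were not used by the rule, and their levels were tested against both heterozygotes by edgeR's quasi-likelihood test over all genes, scaled to miRNA reads. Calls needed an adjusted p (Benjamini-Hochberg) no higher than 0.05 and at least a 2-fold difference. In the comparison with mat, members pass the filter on low counts mainly through mat, where they are high. In the comparison with pat, only pat and nrpd1-/- libraries entered the filter, so members pass it mainly through their reads in pat. RPP1 at 22 nt passed it through its reads in nrpd1-/- instead. Calls of members against either group are therefore given as counts and not as support. An adjusted p is printed only for members that were not called or whose call changed with a setting. At 23 nt, 97 of 97 members tested were lower in nrpd1-/- than in mat (84.4% of all genes tested), with a median log2 difference of -8.10, or -6.46 with the 55 members without nrpd1-/- reads at their bound. None of the 97 was higher (0.999% of all genes tested). At 22 nt, 39 of 40 were lower (65.0% of all genes tested), with a median of -5.27, or -5.13 with 7 members at their bound, and none was higher (1.17% of all genes tested). Of all genes called at 22 nt against mat, 1.77% were higher in nrpd1-/- with miRNA scaling and 20.3% with TMM scaling, which assumes that most genes do not change.

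AT4G02910 had 895, 727 and 563 reads of 23 nt in mat, 150 and 109 in pat and 1, 2 and 1 in nrpd1-/-. The log2 difference to mat was -9.54 (SE 0.598) and to pat -6.78 (SE 1.02). These are given as sizes only, since the gene passed the filter through its reads in mat and in pat. AT1G06927 had 171, 147 and 109 reads of 22 nt in mat, 2 and 8 in pat and none in nrpd1-/-, which was at least 216-fold lower than mat. Neither gene had a nrpd1-/- library within the range of mat.

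Against pat nrpd1+/-, 40 of 40 members tested were lower in nrpd1-/- at 23 nt (75.5% of all genes tested), with a median log2 difference of -6.37, or -4.80 with 12 members at their bound, and none was higher (0.208% of all genes tested). At 22 nt only 5 members had enough reads to be tested, and 2 were lower (51.1% of all genes tested). These were AT4G02910, with a log2 difference of -5.30 (SE 0.936), and AT1G06827, at least 20-fold lower. AT1G06827 had 17 and 14 reads in pat and none in nrpd1-/-. Leaving out either pat library gave 4 members in place of 2. NRPD1, with 15 and 6 reads in pat and 5, 9 and 6 in nrpd1-/-, did not pass (log2 difference -0.69, SE 0.780, edgeR adjusted p = 0.548), nor did the gene AT5G06043 (log2 difference -1.62, SE 0.739, edgeR adjusted p = 0.0547).

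RPP1 went the other way at 22 nt. It had 11, 6 and 8 reads in mat, 5 and 2 in pat and 14, 20 and 20 in nrpd1-/-. The groups of pat and nrpd1-/- did not overlap, and nrpd1-/- was higher than pat by a log2 difference of 2.34 (SE 0.910). It was called higher, as were 0.766% of all genes tested. The gene passed the filter through its reads in nrpd1-/-, where it is high, so the call is not given as support. The call was lost without pat replicate 2 (adjusted p = 0.0650) and without nrpd1-/- replicate 3 (adjusted p = 0.0603). Against mat the log2 difference was 0.55 (SE 0.495, edgeR adjusted p = 0.342), and RPP1 was the 1 member of 40 that was not lower at 22 nt. With TMM scaling it was called higher than mat too (log2 difference 1.13, SE 0.493, edgeR adjusted p = 0.0285).

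Of 24 genes of the pathway that makes and uses these sRNAs, 5 met the read minimum at 24 nt, namely NRPD1, the second-largest subunit NRPD2A, RDR2, SUVH9, which helps to recruit the downstream polymerase, and the DNA demethylase ROS1. NRPD1 was the only member. Mean levels in mat and pat were 1192 and 1038 CPM for NRPD2A, 1363 and 1421 CPM for RDR2, 7705 and 4347 CPM for SUVH9 and 1188 and 1295 CPM for ROS1. At 23 nt, 2 of 2 genes of the list that were tested were lower in nrpd1-/- than in mat (84.4% of all genes tested), and 4 of 5 were lower than in pat (75.5%). At 22 nt, 1 of 1 was lower than in mat (65.0%) and 0 of 1 than in pat (51.1%), that gene being NRPD1.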

How the data were processed

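Endosperm sRNA libraries of 3 genotypes were analysed, 8 in all. The authors trimmed reads, removed adapters with Cutadapt and PCR duplicates by random adapter bases, used Bowtie 1.2.2 to align the rest to Col-0 (TAIR10) and to a pseudo-genome of Ler lifted to the same coordinates, and kept 1 alignment per read, which places a read with several equal matches at only one of them. The authors counted 21-, 22-, 23- and 24-nt reads in Araport11 genes with bedtools, and the deposited tables hold raw read counts per library. The deposited normalized values are a signal that the authors made by dividing counts by size factors of DESeq2. The deposited tables also hold the authors' log2 fold changes, p-values and lists of windows, none of which was used. To obtain the WT mean, the normalized mutant values were subtracted from the authors' mean of all columns, weighted by library number. The tables held 342 further per-library columns that were not used. The 21-nt table of nrpd1-/- repeats entries of pat nrpd1+/- and was not used.

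CPM took the reads in the 427 miRNA rows of the 24-nt tables as denominator in every size class. Between 56.2% and 88.5% of 24-nt reads were in no gene and were left out. Genes at 22 and 23 nt were tested with edgeR 4.0.16 in R 4.3.3, after filterByExpr, 2 genotypes at a time and without covariates, with library sizes from the same miRNA reads. p-values rest on the spread between the few libraries of a genotype. With 4-fold changes put into 200 genes of simulated counts, 82.0% were recovered for mat and 92.5% for pat at 22 nt, and 81.0% and 90.5% at 23 nt. False calls numbered 4 and 7 at 22 nt and 5 and 8 at 23 nt. The changes were equally up and down in well-covered genes, whereas most genes tested here fell in nrpd1-/-. The simulation therefore does not cover members with few reads. Alternatives were TMM, DESeq2 1.42.0, other denominators, read minimums and ratios, no filter, no minimum fold, a replicate block and leaving out each library. Sequences, positions and products were taken from RefSeq TAIR10.1, whose coordinates are those of TAIR10, and 3622 of the 3704 genes matched by locus name. All 24-mers of each gene were counted in the genome on both strands.

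Genes were named by rule: AT1G06927, the 15 members highest in mat, the 5 lowest ratios, genes at the limits of the rule, members within 5 Mb of NRPD1, overlapping members and counts of 5 or fewer. Others were named after their values were seen. The members, lists and tests were chosen with earlier results of these data known.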

Additional observations from a re-analysis of the deposited data

How the results depend on the processing

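The number of members, 136, was 383 with reads in genes, 81 with a minimum of 50 reads, 393 at a ratio of 0.5, 54 at a ratio of 0.2, and 120 to 271 with a library left out, the highest without pat replicate 3. It was 111 without the 5 miRNA rows with most reads, 115 with 21-nt miRNA reads and 200 with a minimum of 10 reads. AT1G06927 was a member under all of these. Against WT, a 3-fold limit, chosen after seeing the data, gave 51 members in place of 86 for mat and 32 in place of 61 for pat. Leaving out each library, also chosen afterwards, gave 82 to 87 and 56 to 63.

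Members lower in nrpd1-/- than in mat at 22 nt numbered 76 with DESeq2 and 108 with no filter in place of 39, where more genes were tested, and 42 to 52 with a library left out. Against pat at 22 nt they numbered 5 with DESeq2, 17 with no filter and 2 to 4 with a library left out in place of 2. Against pat at 23 nt they numbered 24 with TMM, 101 with no filter and 31 to 42 with a library left out in place of 40. At 23 nt against mat the range was 87 to 135 around 97. TMM, which assumes that most genes do not change, moved the median log2 difference of all genes from -4.91 to -4.32 at 22 nt and from -7.37 to -6.54 at 23 nt against mat, and from -2.05 to -1.07 and from -6.27 to -5.49 against pat. The share of calls that were higher in nrpd1-/- went from 1.77% to 20.3% and from 1.17% to 16.9% against mat, and from 1.48% to 11.2% and from 0.275% to 14.0% against pat. RPP1 was then called higher than mat at 22 nt as well (edgeR adjusted p = 0.0285), as it was without the 5 miRNA rows with most reads (adjusted p = 0.0495). With no filter its call against pat was lost (adjusted p = 0.0859).

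With the replicate number as a block, 39, 97, 3 and 35 members were lower at 22 and 23 nt against mat and at 22 and 23 nt against pat. Deviations of same-numbered libraries correlated at -0.121 to 0.032 between mat and nrpd1-/-, and at 0.172 and 0.242 between pat and nrpd1-/-, where there were only 2 pairs, so the libraries were taken to share only a number. The 21-nt miRNA scaling was not run for nrpd1-/-. Members with all nrpd1-/- libraries below all mat libraries at 24 nt numbered 134 to 136, and those with all pat below all mat libraries at 22 nt 78 to 103 in place of 80. Over all results, 66 alternatives stayed within 1.5 times of the value given and 15 moved further. Depth limits the members near the read minimum most, where 1 read in the shallower pat library was worth 76.2 CPM.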
